A study of Mus musculus with 18 samples.

Results

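The comparison described here is that of oxidized LDL (OxLDL) with acetylated LDL (AcLDL) in bone marrow-derived macrophages (BMDM-s) of *Slc7a7*-/- mice. It rests on 6 of the 18 RNA-Seq libraries of the series, 3 with OxLDL and 3 with AcLDL, chosen by their labelled genotype and treatment. The cells of each of 3 knockout mice were split over both LDLs and a mock-treated Control, so that each OxLDL library has an AcLDL library of the same mouse. The mice carried a myeloid-specific deletion of *Slc7a7*, made with LysM-Cre, which is driven from the *Lyz2* locus, and the deletion was shared by all 3 media. The other 9 libraries of the design came from 3 *Slc7a7*+/+ mice given the same media, and 6 of these served as a second, wild type comparison. Marrow was taken from 12-week-old animals, grown into macrophages over 7 days and exposed for 24 h. OxLDL was given at 100 μg/mL and AcLDL at 50 μg/mL. The kind of LDL and a 2-fold difference in dose therefore cannot be told apart in any value below.

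Macrophages take up modified LDL through scavenger receptors rather than through the LDL receptor, and the cholesterol released in lysosomes shuts down the SREBP2 program of sterol synthesis and LDL uptake while it turns on the LXR program of sterol export. Oxidized LDL also carries lipid peroxides and oxidized phospholipids, which are known to act on the antioxidant factor NRF2 and on PPARγ. *Slc7a7* encodes y+LAT1, a transporter that exchanges cationic amino acids for glutamine and other neutral amino acids across the plasma membrane.

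The deleted gene was read first. In AcLDL libraries of mice 1, 2 and 3, *Slc7a7* was at 2.36, 2.22 and 5.22 CPM (counts relative to the TMM-scaled library size), and in the OxLDL libraries of the same mice it was at 10.1, 10.9 and 8.67 CPM. These levels rest on 3 to 9 counts per AcLDL library and 12 to 16 counts per OxLDL library. All OxLDL libraries lay above all AcLDL libraries (two-sided exact permutation test, p = 0.1, the smallest p that 3 against 3 allow), with a log2 fold change of 1.53 ± 0.42 (SE) and an adjusted p of 0.0563 in edgeR's quasi-likelihood test, which did not pass the threshold of 0.05. Without a filter on low counts the adjusted p was 0.0162. It was 0.406 without the mouse as a block and 0.579 without knockout mouse 2. In Control the same mice were at 10.25, 4.33 and 5.16 CPM, with a mean of 6.58 CPM between those of the LDLs. In wild type cells the same gene was at 25.3 ± 2.74 CPM with AcLDL and 28 ± 1.81 CPM with OxLDL (mean ± SD, n = 3), so that the knockout libraries remained below the wild type mean with either LDL. The difference in log2 fold change between the genotypes was 1.38 (adjusted p = 1).

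Total counts were between 1267790 and 1768816 in the AcLDL libraries and between 1183430 and 1716434 in the OxLDL libraries, so that a count of 0 allows a level of up to 3 counts or 1.67 to 2.53 CPM, and genes under 10 CPM were measured with little precision. All 12 macrophage markers were detected, and none of them passed the test. Their summed level was 16391 to 19143 CPM with AcLDL, 13922 to 15920 CPM with OxLDL and 18885 to 22414 CPM in Control. Of 12 neutrophil markers, *Ly6g*, *Retnlg* and *Cxcr2* had no count in any knockout library. The summed level was 39.4 to 83.5 CPM with AcLDL, 86.2 to 139 CPM with OxLDL and 68.7 to 160 CPM in Control. Stromal markers summed to at most 13.9 CPM, dendritic to at most 5.20 CPM and lymphoid to at most 0.842 CPM in these 6 libraries, and the 6 erythroid markers had no count. The part of other cell types in the results was not tested. In bulk RNA, fewer cells of a type and less RNA per cell cannot be told apart. *Xist* had 4374 and 4886 counts in the libraries of mouse 1 and at most 2 in those of mice 2 and 3. Y-linked genes summed to 0 counts in mouse 1 and 343 to 411 in mice 2 and 3. By these counts mouse 1 was female and mice 2 and 3 were male. Wild type mouse 2 read as female in the same way.

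In *Slc7a7*-/- macrophages, several antioxidant, iron-handling and lipid-uptake genes were higher with OxLDL than with AcLDL, and several genes of sterol synthesis, antigen presentation, the interferon response and mitosis and a number of surface receptors were lower. Of 12290 genes tested with the mouse as a block, 169 passed the threshold (1.38% of the genes tested), 62 of them higher (0.504%) and 107 lower (0.871%) with OxLDL. Among the 62 that rose, the median log2 fold change was 0.61 and 6 reached 2-fold. Of the 107 that fell, 21 reached 2-fold, with a median of -0.66, while the median over all genes tested was 0.0007. Of the 12290 genes, 6161 had a log2 fold change above 0 and 6129 below 0. These shares over all genes tested are the background for the list counts below. The 3 libraries of an LDL did not overlap the 3 of the other in 58 of the 62 and 79 of the 107, against 13.4% of all genes tested. The calls rest on the pairing by mouse. Without the block only 8 genes passed, 1 higher and 7 lower, and DESeq2 with the block called 95, of which 89 were among the 169. DESeq2's independent filtering gave no adjusted p to 8578 of the 12290 genes, 45 of the 169 among them, so that these could not pass. Leaving out mouse 2 left 44 calls, leaving out mouse 3 left 77 and leaving out mouse 1 left 95. *Cd36*, *Cx3cr1*, *Spn*, *Cxcl16*, *Idi1* and *Nadk* were among the 8 genes past the threshold in all 16 other fits of this comparison, counting those with a library or a mouse left out. *Nadk*, which encodes NAD kinase, was picked out here after its values were seen, at 184, 195 and 188 CPM with AcLDL and 122, 105 and 103 CPM with OxLDL in mice 1, 2 and 3. On GRCm38, with the GENCODE annotation, *Cd36* lies on chromosome 5 from 17781690 to 17888801 (- strand) and *Cx3cr1* on chromosome 9 from 119901616 to 120069879 (- strand). *Slc7a7* lies on chromosome 14 from 54369442 to 54417780 (- strand).

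**Figure D1:**
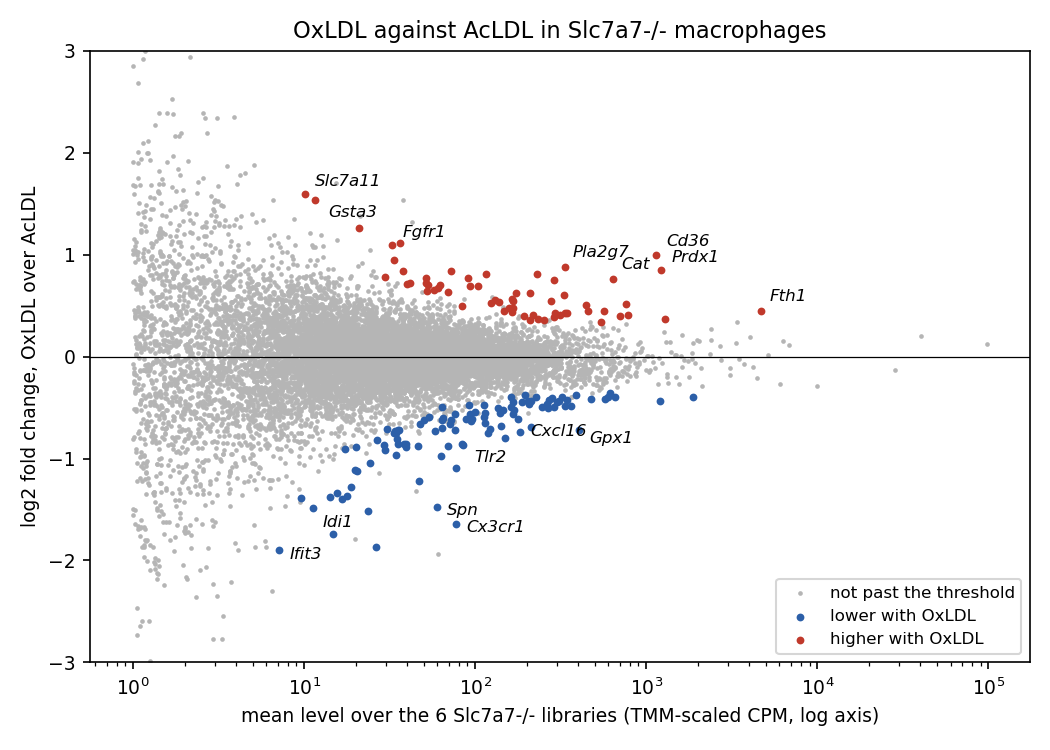
Each point is a gene, with its mean level over the 6 *Slc7a7*-/- libraries in CPM on a log axis and its log2 fold change of OxLDL over AcLDL. Red marks genes that rose, blue those that fell and grey those not past the threshold, and the labelled genes include *Cd36* at 1.0 and *Cx3cr1* at -1.64. Of the genes tested, 720 lie outside the axes or under a mean of 1 CPM, 3 of them past the threshold.

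*Cd36*, a scavenger receptor for oxidized LDL and a carrier of fatty acids, was at 569.7, 846 and 836 CPM with AcLDL and 1033, 1947 and 1579 CPM with OxLDL in mice 1, 2 and 3. The groups did not overlap, each mouse rose, and the log2 fold change was 1.0 ± 0.10 (SE, adjusted p = 4.42e-08). This was the gene with the smallest p among those that rose, and the only rise past the threshold without the mouse block (adjusted p = 0.0381). *Pla2g7*, the lipoprotein-associated phospholipase that cleaves oxidized phospholipids, went from 307, 183 and 219 CPM to 509, 340.0 and 442 CPM. Its libraries did not overlap, and the log2 fold change of 0.88 ± 0.11 had an adjusted p of 3.42e-06. The fatty acid-binding protein *Fabp5* rose by a log2 fold change of 0.56 ± 0.12 (adjusted p = 0.0111). *Cd36* and *Fabp5* were the 2 members that passed among the 27 tested PPAR targets and lipid droplet and β-oxidation genes, whose median was -0.07. *Plin2*, which coats lipid droplets, was chosen after its values were seen and had a log2 fold change of 0.21 (adjusted p = 0.387). Of 14 tested scavenger receptors, *Cd36* rose and *Cxcl16* fell. Over all genes tested, 0.504% rose and 0.871% fell. *Msr1*, the class A scavenger receptor that takes up AcLDL, was also looked up after the fit and had a log2 fold change of 0.34 (adjusted p = 0.0791), so that it did not pass.

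**Figure D2:**
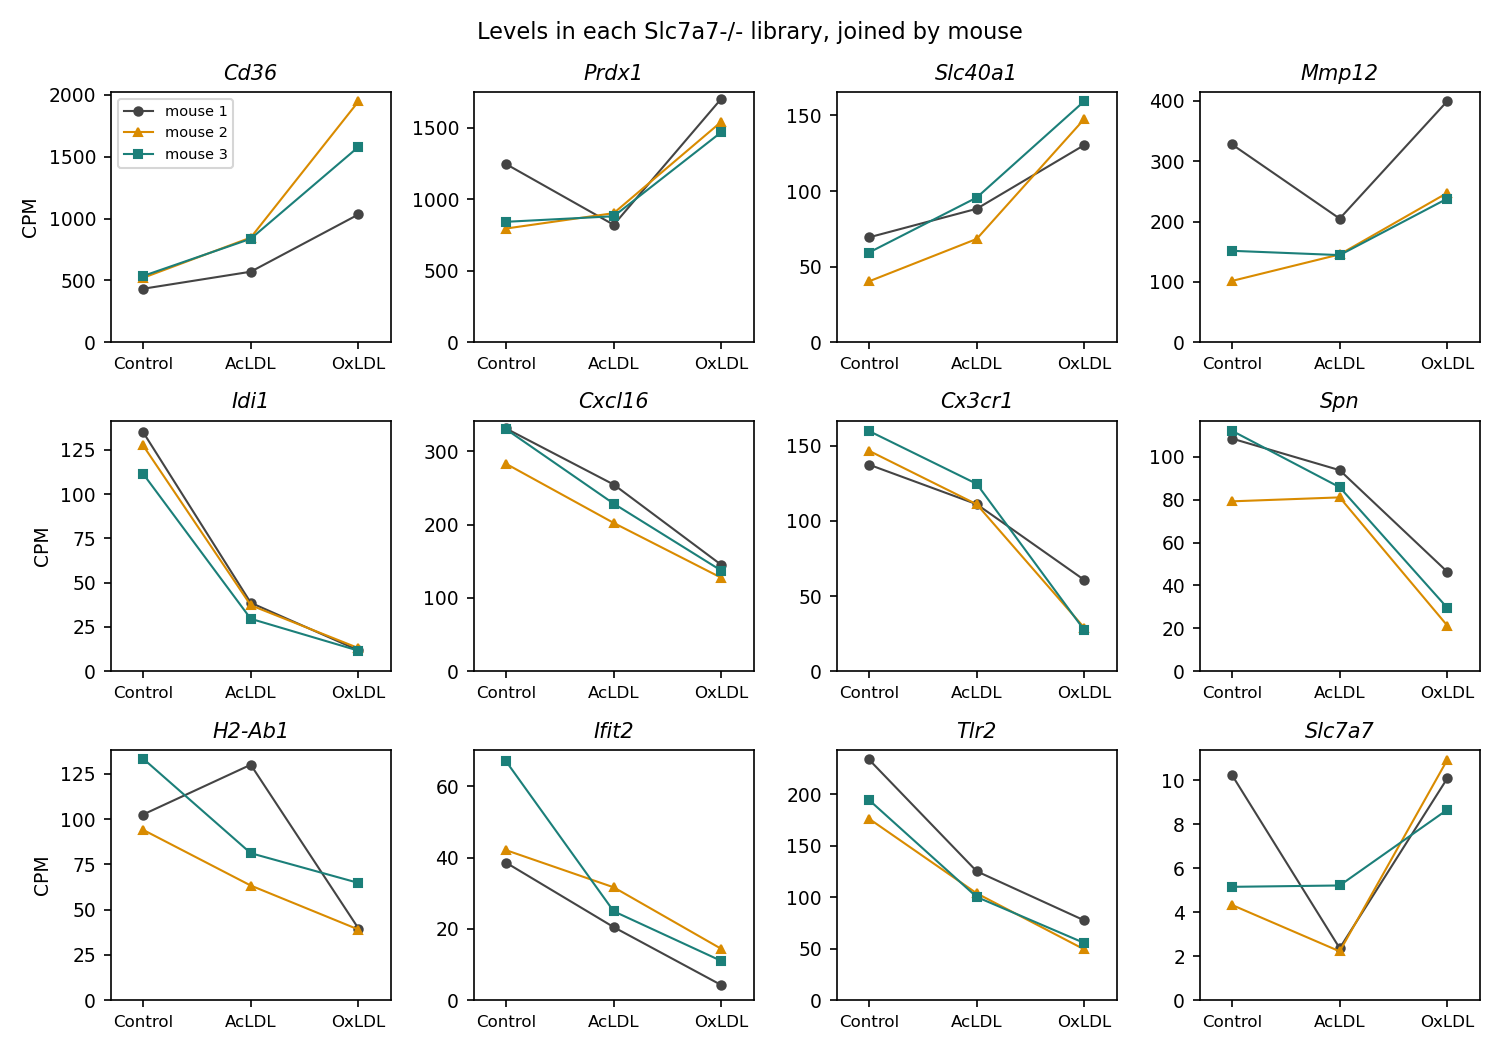
Levels in CPM in each *Slc7a7*-/- library for 12 genes, from Control over AcLDL to OxLDL, with a line for each of the 3 mice and axes that start at 0. *Cd36*, *Prdx1*, *Slc40a1* and *Mmp12* were higher with OxLDL than with AcLDL in each mouse, and *Idi1*, *Cxcl16*, *Cx3cr1*, *Spn*, *H2-Ab1*, *Ifit2* and *Tlr2* were lower. *Slc7a7*, in the last panel, did not pass the threshold.

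The NRF2 list held the most genes that rose. NRF2 is held down by KEAP1 until electrophiles or peroxides modify KEAP1, and its targets make glutathione, detoxify peroxides and handle heme. Of 41 members tested, 15 rose, 1 fell and 25 did not pass, with a median log2 fold change of 0.34 against 0.0007 over all genes. Of all genes tested, 0.504% rose and 0.871% fell. *Prdx1*, a peroxidase that reduces hydrogen peroxide, was at 820.3, 902 and 880.2 CPM with AcLDL and 1703, 1542 and 1469 CPM with OxLDL in mice 1, 2 and 3. Its lowest OxLDL library stood above its highest AcLDL library by a wide margin, with a log2 fold change of 0.84 ± 0.11 (adjusted p = 1.18e-05). *Cat*, which encodes catalase, went from 475, 488 and 462 CPM to 759, 856 and 793 CPM. Again no library overlapped, and the change was 0.76 ± 0.10 (adjusted p = 7.05e-06). *Gclm*, the modifier subunit of the enzyme that starts glutathione synthesis, went from 216, 238 and 188 CPM to 337, 417 and 326 CPM, a log2 fold change of 0.75 ± 0.11 (adjusted p = 3.27e-05). The catalytic subunit *Gclc* rose by 0.70. The 2 largest rises past the threshold, as OxLDL over AcLDL, were the cystine importer *Slc7a11*, whose cystine feeds glutathione synthesis, and the glutathione transferase *Gsta3*. Both were low. *Slc7a11* was at 4.73, 3.33 and 5.80 CPM with AcLDL and 26.9, 11.6 and 8.09 CPM with OxLDL (log2 fold change 1.59 ± 0.42, adjusted p = 0.0442), and *Gsta3* was at 7.09, 6.66 and 4.06 CPM and 19.4, 19.8 and 12.7 CPM (1.54 ± 0.35, adjusted p = 0.0161). In Control, *Slc7a11* was at 35.6, 17.3 and 11.6 CPM, above OxLDL in each mouse. Control levels of *Gsta3* were 11.5, 9.90 and 7.74 CPM, between the LDLs. Each gene missed the threshold in 9 of its 16 other fits with an adjusted p. The microsomal transferase *Mgst1* rose by 0.84 ± 0.15 (adjusted p = 0.00127), and *Srxn1*, *Gstm1*, *Taldo1*, *Esd* and *Hmox1* rose by between 0.39 and 0.77. *Gstm1* shares 28.8% of its 31-base words with other genes, so that reads may have been split among copies. The member that fell was *Gpx1*, a glutathione peroxidase, from 501, 489.8 and 513 CPM to 325, 275 and 314 CPM without overlap (-0.72 ± 0.09, adjusted p = 1.18e-05). *Nfe2l2*, the gene of NRF2 itself, was looked up after the fit and had a log2 fold change of 0.06 (adjusted p = 0.927). Without the mouse block no member of the list passed, and with DESeq2 11 rose and 1 fell.

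The letters that NRF2 is known to bind, TGACNNNGC, were searched on both strands in the RefSeq promoters of GRCm38.p6 (250 bases before to 50 after a start). They occurred in 13 of the 35 list members with a promoter entry (37.1%), in 12 of the 48 genes with an entry that rose (25%), in 9 of the 75 that fell (12%) and in 17% of all genes tested that have an entry. The same letters occurred in 10 of 33 interferon response genes (30.3%) and 4 of 16 sterol synthesis genes (25%) with an entry. In both of those lists 0 members rose, so the letters were not particular to lists that rose. Windows of 29 bases are printed in the direction of the gene. They are shown for the 4 NRF2 list members with an entry that rose and hold the letters before their start. Capitals mark the match, which in *Gclm*, *Prdx1* and *Mgst1* reads on the other strand.
*Gclm* (chr3:122245413-122245441, + strand): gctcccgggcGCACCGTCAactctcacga
*Prdx1* (chr4:116685456-116685484, + strand): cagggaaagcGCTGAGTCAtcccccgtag
*Mgst1* (chr6:138140461-138140489, + strand): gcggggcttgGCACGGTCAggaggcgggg
*Gsta3* (chr1:21240454-21240482, + strand): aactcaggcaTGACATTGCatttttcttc
A match describes the sequence and shows no binding in these cells.

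Of 24 tested genes of heme and iron handling, 7 rose, 0 fell and 17 did not pass, with a median log2 fold change of 0.21. Over all genes tested, 0.504% rose. *Slc40a1*, which encodes ferroportin and exports iron, was at 88.3, 68.3 and 95.7 CPM with AcLDL and 130.5, 148 and 159.6 CPM with OxLDL in mice 1, 2 and 3 (log2 fold change 0.81 ± 0.14, adjusted p = 0.000552). *Tfrc*, the transferrin receptor that imports iron, went from 81.2, 120.0 and 115 CPM to 128, 170.4 and 165 CPM (0.55 ± 0.12, adjusted p = 0.00762), so that the exporter and the importer were both higher and neither overlapped. *Hmox1*, which breaks down heme, went from 161, 181 and 156 CPM to 236, 270.3 and 258 CPM (0.62 ± 0.11, adjusted p = 0.000599). The ferritin heavy chain *Fth1*, among the most abundant of these mRNAs, rose by 0.45 ± 0.10 (adjusted p = 0.0129), with 1 OxLDL library (4862 CPM) just below the highest AcLDL library (4905 CPM). Its mean was 5371 CPM in Control and 5371 CPM with OxLDL, against 3994 CPM with AcLDL. The metal transporter *Slc11a1* of phagosomes, the heme transporter *Slc48a1* and the biliverdin reductase *Blvrb* rose by 0.43, 0.40 and 0.41. *Hmox1*, *Fth1*, *Blvrb* and *Slc48a1* are also on the NRF2 list, so the lists are not independent.

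Of 12 markers of lipid-associated macrophages (LAM-s), 4 rose, 0 fell and 8 did not pass, with a median of 0.16, where 0.504% of all genes tested rose. The markers that rose were *Mmp12*, *Fabp5*, *Cd63* and *Lgals3*. *Mmp12*, the macrophage elastase, was at 205, 145 and 144 CPM with AcLDL and 399.9, 248 and 238 CPM with OxLDL (0.81 ± 0.14, adjusted p = 0.000766). Mouse 1 was the highest with either LDL, and within each mouse OxLDL was higher. The tetraspanin *Cd63* and the galectin *Lgals3* rose by 0.43 ± 0.10 (adjusted p = 0.0155) and 0.37 ± 0.09 (adjusted p = 0.0173). The mean of *Cd63* was 322 CPM in Control, 249 CPM with AcLDL and 334 CPM with OxLDL. That of *Lgals3* was 1202, 1125 and 1442 CPM in the same order. All 4 markers that rose had a lower mean with AcLDL than in Control. *Trem2*, the lipid receptor used to define these cells, was at 379.8, 451 and 444 CPM with AcLDL and 466, 441 and 472 CPM with OxLDL, overlapping groups with a log2 fold change of 0.11 ± 0.09 (adjusted p = 0.792). *Folr2*, a folate receptor of resident-type macrophages, was at 41, 134 and 100.3 CPM and 37.9, 78 and 68.2 CPM. It was lower with OxLDL in each mouse, but the mice spread more than the LDLs, and the change of -0.56 ± 0.14 (adjusted p = 0.0353) did not pass with DESeq2 (adjusted p = 0.296). *Lyz2*, whose locus carries the Cre, was at 11952, 10096 and 10665 CPM and 10478, 7526 and 8908 CPM (-0.29 ± 0.10, adjusted p = 0.226). Of the other matrix genes, the collagenase *Mmp8* rose by 0.94 ± 0.21 (adjusted p = 0.0136), while the sheddase *Adam17* and the syndecan *Sdc3* fell by 0.45 and 0.42 on the log2 scale.

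Further genes rose outside these groups. *Fgfr1*, a fibroblast growth factor receptor, was at 23.6, 22.8 and 16.2 CPM with AcLDL and 48.8, 43.8 and 39.9 CPM with OxLDL (1.09 ± 0.19, adjusted p = 0.00106). The channel *Panx1*, which releases ATP, went from 17.3, 27.8 and 23.8 CPM to 42.9, 59.5 and 47.4 CPM (1.11 ± 0.20, adjusted p = 0.00157). Neither gene had overlapping libraries. The protease inhibitor *Serpinb9b*, the glycogen branching enzyme *Gbe1*, the pentraxin *Nptx1* and *Ankrd33b* rose by 1.26, 0.77, 0.78 and 0.84, each from a mean under 40 CPM with AcLDL. At higher levels, the C-type lectin *Clec4d* rose by 0.50 ± 0.09 (adjusted p = 0.000985), *Fnip2*, a partner of folliculin in nutrient sensing at the lysosome, by 0.45 ± 0.09 (adjusted p = 0.00364) and the hexokinase *Hk3* by 0.48 ± 0.10 (adjusted p = 0.00651). *Hk3* was the only member past the threshold of 34 glycolysis and HIF genes tested, with a median of 0.10.

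**Figure D3:**
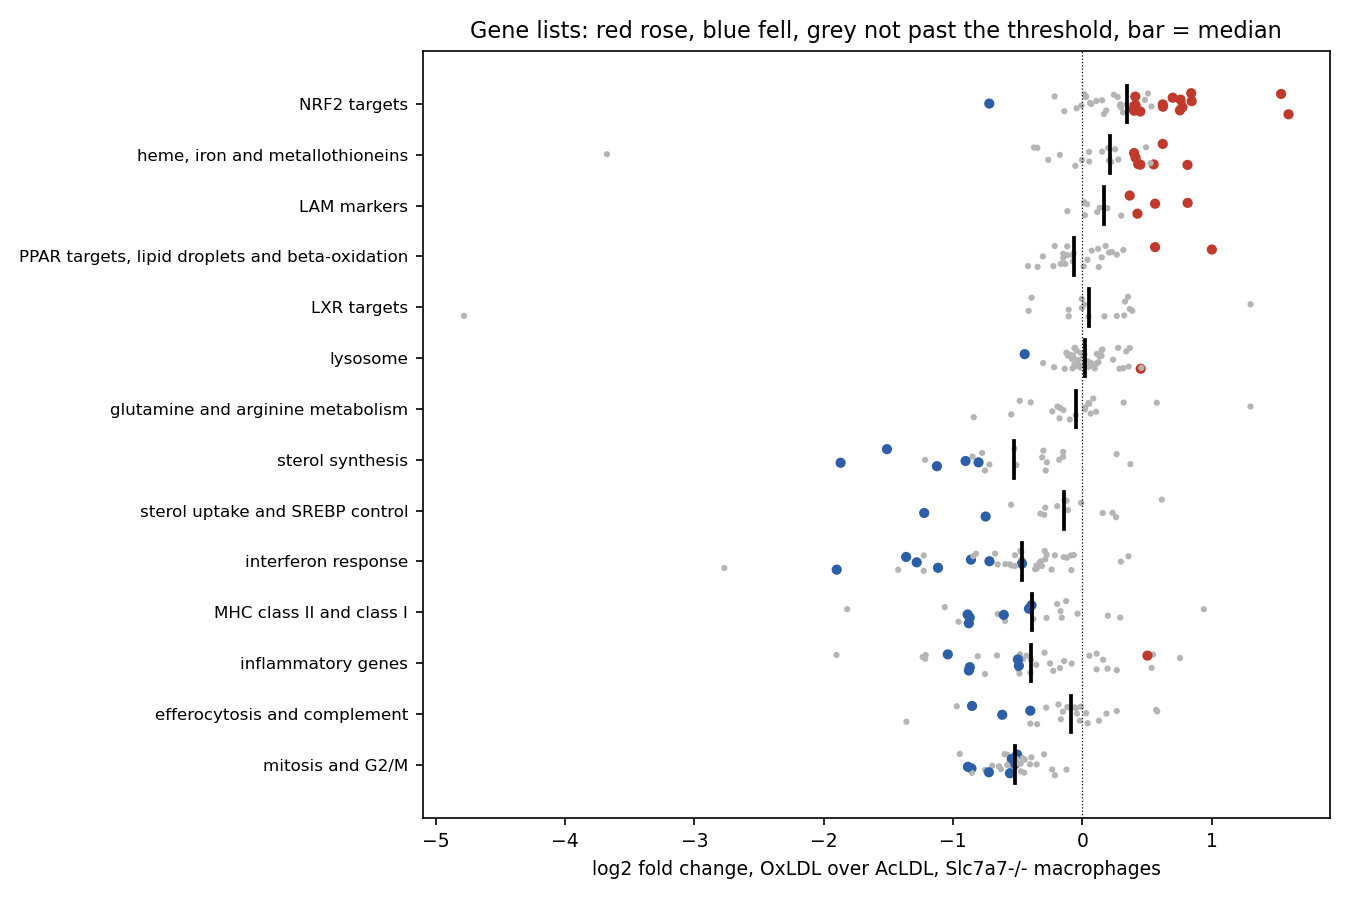
Log2 fold changes of OxLDL over AcLDL for the members of 14 gene lists in *Slc7a7*-/- macrophages, a point for each tested gene with vertical scatter added for legibility. Red members rose, blue ones fell, grey ones did not pass, and the black bar is the median, from -0.53 for sterol synthesis to 0.34 for NRF2 targets.

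Several enzymes of sterol synthesis fell with OxLDL against AcLDL. Of 21 tested, 5 fell, 0 rose and 16 did not pass, with 19 below 0 and a median log2 fold change of -0.53. Over all genes tested, 0.871% fell and 6129 of 12290 were below 0. *Idi1*, the isomerase of isoprenoid units, was at 38.6, 37.2 and 29.6 CPM with AcLDL and 11.8, 13 and 11.6 CPM with OxLDL in mice 1, 2 and 3, against 135, 128 and 112 CPM in Control. Every OxLDL library was below every AcLDL library and these were below Control, with a log2 fold change between the LDLs of -1.51 ± 0.22 (adjusted p = 7.85e-05). Squalene epoxidase *Sqle* went from 22.1, 37.2 and 23.8 CPM to 10.9, 16.4 and 11 CPM (-1.12 ± 0.24, adjusted p = 0.00758). *Hmgcs1*, a synthase early in the pathway, fell by 0.80 and *Fdft1*, squalene synthase, by 0.90 on the log2 scale. *Insig1*, which holds SREBP in the endoplasmic reticulum and is itself a target, went from 46.5, 34.4 and 47 CPM to 32, 23.9 and 21.4 CPM (-0.75 ± 0.18, adjusted p = 0.0253). Among the 15 tested genes of sterol uptake and SREBP control 2 fell, *Insig1* among them, and 0 rose.

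The sterol response letters TCACNCCAC were found in the promoter window of 1 of 16 sterol synthesis genes with an entry, *Hmgcs1*, and in 1.43% of all genes tested with an entry. The window is shown because *Hmgcs1* is the list member with an entry that both fell and holds the letters.
*Hmgcs1* (chr13:119690204-119690232, + strand): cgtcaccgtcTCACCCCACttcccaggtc

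No gene of sterol export passed. Of 17 LXR targets tested, 0 passed in either direction (edgeR) and 0 of the 11 with an adjusted p in DESeq2, with a median of 0.05. *Abca1*, which loads cholesterol onto apolipoprotein A-I, was at 378, 305 and 469 CPM with AcLDL and 407, 447 and 432 CPM with OxLDL, both above its Control mean of 143 CPM. Its partner *Abcg1* was at 226, 189.9 and 278 CPM and 262, 307 and 313 CPM (0.35 ± 0.12, adjusted p = 0.194), with a Control mean of 89.7 CPM. Both were looked up after the fit. None of 20 fatty acid synthesis and desaturation genes passed with edgeR, nor did any of the 6 with an adjusted p in DESeq2 (median -0.08).

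Interferon-stimulated genes, which respond to type I interferon and block viral replication, were among the falls with OxLDL. Of 44 tested, 7 fell, 0 rose and 37 did not pass, with 42 below 0 and a median of -0.47. Over all genes tested, 0.871% fell and 6129 of 12290 were below 0. *Ifit2*, which binds viral RNA, was at 20.5, 31.7 and 24.9 CPM with AcLDL and 4.21, 14.4 and 11 CPM with OxLDL in mice 1, 2 and 3, and between 38.6 and 67 CPM in Control. The groups did not overlap (-1.36 ± 0.28, adjusted p = 0.00589). *Ifit3* went from 8.67, 13.9 and 11.6 CPM to 0, 4.11 and 4.62 CPM (-1.90 ± 0.48, adjusted p = 0.033) and shares 61.8% of its 31-base words with other genes, *Ifit3b* first, so its level is uncertain. *Irf7*, the factor that amplifies interferon, went from 16.5, 39.4 and 22.6 CPM to 13.5, 8.89 and 11 CPM (-1.28 ± 0.30, adjusted p = 0.0186), with mouse 2 the highest with AcLDL, and its adjusted p reached 0.722 when a mouse was left out. *Ddx58*, the RNA sensor RIG-I, and *Parp14* fell by 0.72 and 0.47 on the log2 scale, and *Ifi27l2a* and *Rtp4* by 0.86 and 1.12. *Ifi211*, off the list, fell by 1.34 ± 0.28 (adjusted p = 0.00641), with 78.9% of its words shared, mostly with *Ifi205*. DESeq2 gave an adjusted p to 1 of the 7, *Parp14*, which passed, and none of the 7 passed without the block.

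The interferon response letters GAAANNGAA were found in 20 of 33 list members with a promoter entry (60.6%) and in 8.94% of all genes tested with an entry. Among genes past the threshold with an entry, 11 of 75 that fell (14.7%) and 5 of 48 that rose (10.4%) held them. *Ifit3*, the list member that fell most, holds them 3 times before its start, each on the other strand. Among members with a promoter entry, it was the only one past the threshold with the letters before its start. Of 44 members tested, 33 had an entry, and the others could not be searched. Other holders, such as *Ifit1*, *Gbp3* and *Isg15*, did not pass.
*Ifit3* first (chr19:34583364-34583392, + strand): agtggtaagtTTCACTTTCctcttctggt
*Ifit3* middle (chr19:34583398-34583426, + strand): ttaagtctgtTTCAGTTTCtactttcctc
*Ifit3* last (chr19:34583417-34583445, + strand): tactttcctcTTCCCTTTCacaaacactg

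Several antigen presentation genes fell as well. Of 21 class II and class I genes tested, 6 fell, 0 rose and 15 did not pass (median -0.39), where 0.871% of all genes tested fell. *H2-Ab1*, the class II β-chain, was at 130.0, 63.3 and 81.2 CPM with AcLDL and 39.6, 39 and 64.7 CPM with OxLDL in mice 1, 2 and 3. Each mouse fell, but the highest OxLDL library (mouse 3) was above the lowest AcLDL library (mouse 2), and the change was -0.88 ± 0.18 (adjusted p = 0.005). The class II α-chain *H2-Aa* went from 64.6, 41.1 and 48.7 CPM to 24.4, 21.9 and 35.3 CPM without overlap (-0.89 ± 0.21, adjusted p = 0.017). *Cd74*, the invariant chain, and *H2-Eb1* fell by 0.61 and 0.87 on the log2 scale. In class I, *H2-K1* went from 596, 526 and 509 CPM to 407, 400.3 and 413 CPM (-0.41 ± 0.09, adjusted p = 0.0104), with 22.8% of its words shared with *H2-D1* and other genes, and *B2m* fell by 0.39. None of the 6 passed without the block (edgeR), and the 4 with an adjusted p in DESeq2 passed there. With a mouse left out, the adjusted p (edgeR) reached 0.285 for *H2-Ab1* and 0.211 for *Cd74*.

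Several surface receptors and inflammatory genes fell. *Cx3cr1*, the receptor for fractalkine, had the smallest p of the genes that fell. It was at 111, 111 and 125 CPM with AcLDL and 60.6, 28.7 and 27.2 CPM with OxLDL, with a log2 fold change of -1.64 ± 0.17 (adjusted p = 2.97e-07). The highest OxLDL library, of mouse 1, was still far below the lowest AcLDL library. *Spn*, the sialoglycoprotein CD43, went from 93.8, 81.1 and 85.8 CPM to 46.3, 21.2 and 29.5 CPM (-1.47 ± 0.18, adjusted p = 3.42e-06). *Cxcl16*, a membrane-bound chemokine that also binds oxidized lipoproteins, went from 255, 202 and 228 CPM to 145, 127 and 137 CPM (-0.74 ± 0.10, adjusted p = 2.39e-05). None of these 3 genes had overlapping groups. Of 36 inflammatory genes tested, 5 fell, 1 rose and 30 did not pass, with a median of -0.40. Over all genes tested, 0.871% fell and 0.504% rose. *Tlr2*, the receptor for bacterial lipopeptides, was at 125, 104 and 100.3 CPM with AcLDL and 77.5, 49.3 and 55.5 CPM with OxLDL (-0.87 ± 0.13, adjusted p = 4.72e-05), and its co-receptor *Cd14* fell by 0.49 ± 0.09 (adjusted p = 0.00131). *Marcksl1*, *Traf1* and *Icam1* were the other members that fell, and *Clec4d* was the member that rose. Among the 24 efferocytosis and complement genes, *C3*, *C1qa* and *C1qc* fell and 0 rose. *C3*, the central complement component, went from 115, 98.8 and 108 CPM to 58.1, 52.7 and 66.5 CPM (-0.85 ± 0.15, adjusted p = 0.00127). *C1qa* and *C1qc* fell by 0.62 and 0.40, with overlapping libraries. The inhibitory lectin *Clec12a* fell by 0.48 ± 0.09 (adjusted p = 0.00373), and the cyclooxygenase *Ptgs1* by 0.71 ± 0.18 (adjusted p = 0.037). The large falls of low genes were those of the heat shock gene *Hspa1b* (-1.74, 68% of its words shared with *Hspa1a* and others), the chemokine *Cxcl14* (-1.48), *Tmem176b* (-1.39), *Btbd11* (-1.39) and the adhesion receptor *Adgre4* (-1.37), each with a mean under 25 CPM with AcLDL.

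Mitotic genes were also among the falls. Of 32 tested, 7 fell, 0 rose and all 32 had a log2 fold change below 0, with a median of -0.52. Over all genes tested, 0.871% fell and 6129 of 12290 were below 0. Of 36 DNA replication genes, 0 passed with edgeR and 0 of the 12 with an adjusted p in DESeq2. Of these 36, 28 were below 0 too, with a median of -0.12. *Top2a*, which untangles sister chromatids, was at 247, 349 and 339 CPM with AcLDL, 200.4, 235 and 224 CPM with OxLDL and 233, 240.2 and 242 CPM in Control (-0.50 ± 0.12, adjusted p = 0.0186). AcLDL was the highest of the 3 media there in mice 1, 2 and 3. *Birc5*, which encodes survivin, went from 40.2, 56.6 and 51 CPM to 23.6, 31.5 and 26.6 CPM with Control at 30.1, 42.7 and 32.2 CPM (-0.86 ± 0.20, adjusted p = 0.0186). *Prc1*, which bundles spindle microtubules, fell by 0.72 ± 0.15 (adjusted p = 0.00762) and *Hmgb2* by 0.56 ± 0.12 (adjusted p = 0.00625). *Cenpe*, *Cenpf* and *Plk1* were the other members that fell. None of the 7 passed without the block, and 3 of the 5 with an adjusted p in DESeq2 passed there.

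Of 26 tested amino acid transporters, the class to which *Slc7a7* belongs, *Slc7a11* rose and 0 fell, where 1.38% of all genes tested passed. Their median was 0.09. The same gene was the only member of 40 ATF4 targets that passed (median 0.06). Of 21 glutamine and arginine metabolism genes, 0 passed with edgeR and 0 of the 9 with an adjusted p in DESeq2 (median -0.05). In 52 lysosomal genes, *Fnip2* rose and the protease *Ctsc* fell by 0.45 (median 0.02). Of 30 immediate early genes, 24 of the unfolded protein response and 56 of the respiratory chain, 0 passed with edgeR, nor did any of the 12, 18 and 26 with an adjusted p in DESeq2, with medians of -0.19, -0.00 and -0.07. *Tfrc* was the only rise among 9 alternative activation genes and *Hspa1b* the only fall among 19 heat shock genes.

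The Control libraries of the same 3 mice place these differences, as a description with no test. Among the 107 genes that fell, the Control mean lay above both LDLs in 79, between them in 27 and below both in 1, where over all 12290 genes tested it lay above both in 4492, between them in 3386 and below both in 4412. Most genes that were lower with OxLDL than with AcLDL thus also had a lower mean with AcLDL than in Control. *Idi1* and *Tlr2* had this order, and *C3* did too, with a Control mean of 257 CPM against 107 CPM with AcLDL. Among the 62 that rose, Control lay below both LDLs in 30, between them in 29 and above both in 3. *Cd36*, *Hmox1* and *Slc40a1* had their lowest mean in Control. *Mmp12* and *Pla2g7* had their lowest mean with AcLDL, and *Fabp5* had a Control mean of 209 CPM, above its mean of 196 CPM with OxLDL. *Fth1* and *Cd63* had Control means close to those with OxLDL and above those with AcLDL. The Control mean of *Slc7a11*, 21.5 CPM, was above both LDLs. For *Fabp5* and *Slc7a11*, the mean with OxLDL was above that with AcLDL but below that of Control. *Mmp12* and *Pla2g7* had means of 295 and 430 CPM with OxLDL, above their Control means of 194 and 332 CPM. AcLDL and OxLDL share these Control libraries, so that the orders of the media are not independent of each other.

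The wild type libraries gave the same contrast in 3 other mice, with no library in common. There 90 genes passed (0.732% of the genes tested), 46 higher and 44 lower, and 58 genes passed in both genotypes, 34.3% of the 169 knockout calls and 64.4% of the 90 wild type calls. Of these 58, 33 rose in both, 24 fell in both and 1 differed in direction. All 62 genes that rose in the knockout had a log2 fold change above 0 in wild type cells, and 103 of the 107 that fell had one below 0, where 58.4% of all genes tested had the same sign in both genotypes. *Cx3cr1* was at -1.64 in knockout and -1.74 in wild type cells, *Cd36* at 1.0 and 0.88, *Prdx1* at 0.84 and 0.91 and *Gpx1* at -0.72 and -0.70. These genes passed in both. Over the 169 genes, the median size of the log2 fold change was 0.63 in knockout and 0.44 in wild type cells, which was not tested as a difference between the genotypes, since the genes were chosen for passing in the knockout. The NRF2 medians were 0.34 and 0.38, and the interferon medians -0.47 and -0.51. The sterol synthesis medians were -0.53 and -0.10, with 5 members past the threshold in the knockout and 0 in wild type cells, and the MHC medians -0.39 and -0.10, with 6 and 0. No list was tested for a difference.

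**Figure D4:**
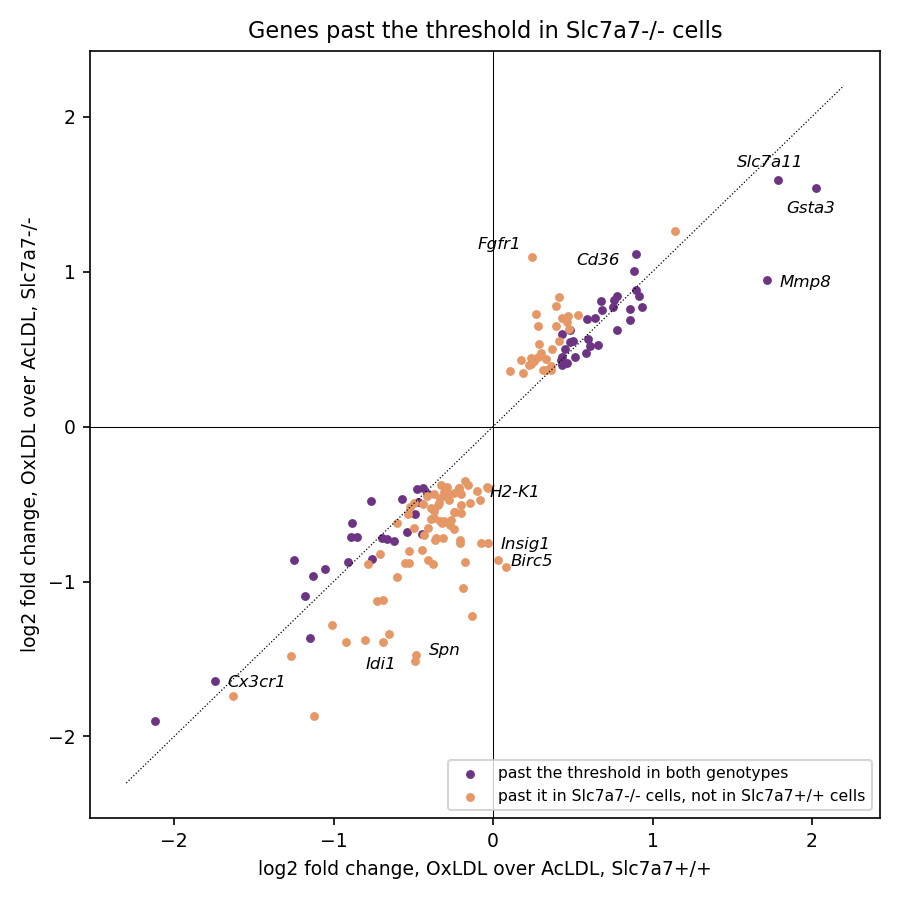
Log2 fold changes of OxLDL over AcLDL in *Slc7a7*+/+ (horizontal) and *Slc7a7*-/- macrophages (vertical) for 166 of the 169 genes past the threshold in the knockout, leaving out 3 whose OxLDL libraries had no count. Purple genes passed in both genotypes, orange ones in the knockout, and the dotted line marks equal changes, with *Spn* at -1.47 in knockout and -0.48 in wild type cells.

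The difference between the genotypes was tested gene by gene. It passed for 1 of 12290 genes (0.00814%), and 459 genes had an unadjusted p under 0.05 (3.73%). That gene was *Gm37988*, which is annotated across *Lypla1* and *Tcea1* and shares 93.6% of its 31-base words with other genes. It had 9, 17 and 0 counts in the AcLDL libraries of the knockout mice and 0 in their OxLDL libraries, against 0 in the AcLDL libraries of wild type mice and 14, 5 and 27 in their OxLDL libraries. Its level is uncertain. *Aldoc*, an aldolase of glycolysis, was picked out by its rank in this test and did not pass, at -0.72 in knockout and 0.65 in wild type cells (difference -1.38, adjusted p = 0.126). *Spn* differed by -0.99 ± 0.25 (adjusted p = 1), and *Idi1* and *Fgfr1* each had an adjusted p of 1. An adjusted p that misses the threshold does not show that the genotypes responded alike.

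Of the 169 genes, 20 share over 20% of their 31-base words with other genes, histone genes among them, 14 overlap an exon of another gene on the same strand and 39 on the other strand. The 3 calls without counts in the OxLDL libraries were *Gm37988*, an identifier of *Hgs* (ENSMUSG00000116045) and *Cd300ld5*. The *Hgs* identifier had 32, 0 and 105 counts with AcLDL, while a second *Hgs* identifier (ENSMUSG00000025793) on the same locus had 33, 89 and 0. Summed, *Hgs* had 65, 89 and 105 counts with AcLDL and 78, 84 and 97 with OxLDL, a log2 fold change of 0.14 (adjusted p = 0.874). *Cd300ld5* had 77, 99 and 0 counts with AcLDL, and over the 5 *Cd300ld* genes the summed log2 fold change was -0.20 (adjusted p = 0.624). With copies summed, 175 genes passed.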

How the data were processed

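RNA-Seq of BMDM-s from 3 *Slc7a7*-/- and 3 *Slc7a7*+/+ mice in 3 media (18 libraries) was analysed. Per the labels and methods, total RNA libraries were made with a stranded kit, and the authors used Trim Galore, STAR on mm10 and Salmon within nf-core. Versions of STAR and Salmon and the strand setting are not given in the sources used here. The authors deposited estimated counts per gene from Salmon without normalization, and the table has 0 columns of other samples. Of 31053 genes listed, 30934 identifiers matched the GENCODE annotation.

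After rounding, 12290 genes passed filterByExpr (minimum count 2, minimum total count 10). All 18 libraries were fitted with the mouse as a block by edgeR 4.0.16 in R 4.3.3 (quasi-likelihood test, TMM factors, 8 residual and 26.2 prior degrees of freedom). P-values were adjusted over these genes by Benjamini and Hochberg and called under 0.05. Log2 fold changes are from this fit and CPM are TMM-scaled. The labels give each library its mouse, so the media are paired. Residuals of each library from its group correlated between AcLDL and OxLDL libraries of the same mouse at 0.168 to 0.206 (5359 genes). Between different mice the correlation was -0.034 at most. Residuals within a group cancel out for each gene, so these negative values are tied to the positive ones and are no separate evidence of pairing. Chi-square per degree of freedom between replicates was 2.03 or more, so none was a repeat of another within counting error. Limits from counts cover counting error only, as reads were not reduced to molecules.

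Named genes were the 15 largest rises and 15 largest falls among calls whose mean was 5 CPM or more and which had the same direction in 3 mice, up to 4 members with the smallest p of each of 29 gene lists, *Slc7a7*, *Lyz2*, *Trem2*, *Folr2* and up to 10 genes past the threshold between the genotypes. Members and lists were chosen with earlier results of these data known. Genes named outside this rule, including the other list members, were chosen after their values were seen. Alternatives were DESeq2 1.42.0, no block, other filters and scaling, other sets of libraries and each library left out. Fits without a mouse and with copies summed were added after seeing the data. Promoter sequences are from RefSeq (GRCm38.p6). The procedure was tested on simulated data. Some genes past the threshold are not reported here. Figures were drawn with matplotlib 3.10.9.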

Additional observations from a re-analysis of the deposited data

Results flagged for a closer look

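The difference between the genotypes in OxLDL against AcLDL passed a test for *Gm37988* (edgeR's quasi-likelihood test, adjusted p = 0.00957), with a log2 fold change of -5.90 in knockout and 7.03 in wild type cells. Its OxLDL libraries in the knockout and its AcLDL libraries in wild type mice had 0 counts, so these fitted values depend on the prior count. Against the limit of 3 counts per library, its mean in the knockout was at least 2.62-fold higher with AcLDL than with OxLDL. The gene is annotated across *Lypla1* and *Tcea1* and shares 93.6% of its 31-base words with other genes. Under the default filter on low counts its change in the knockout did not pass. The part of shared reads in this result was not tested. Groups of 3 libraries are too small for a test of a library that stands apart.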

How the results depend on the processing

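The 169 calls in the knockout were 8 with no replicate block, 95 with DESeq2, 269 without a filter on low counts, 306 when only the 6 libraries compared were fitted and 281 with the 9 knockout libraries. They ranged from 68 to 139 when a library was left out, and were 95, 44 and 77 without knockout mouse 1, 2 and 3. Of the 169 genes, 39 passed with each of the 6 libraries left out, 18 that rose and 21 that fell, and 30 with each mouse left out. Among 68 other named genes past the threshold, 61 did not pass without the block, at adjusted p up to 0.984. The 90 wild type calls were 1 with no replicate block, 54 with DESeq2 and 156 without a filter, and ranged from 45 to 83 when a library was left out. The 1 call for the difference between the genotypes became 0 with no replicate block (edgeR, 318 at an unadjusted p under 0.05). It became 0 with the default filter (383), 8 with DESeq2, of which 0 were shared, and 20 without a filter. With a library left out the range was 0 to 6. All 8 DESeq2 genes had a mean of 0 CPM in at least 1 group. Their DESeq2 log2 differences ran from -47.7 to 33.9, so their sizes were not determined. *Slc7a7* passed without a filter (log2 fold change 1.53, adjusted p = 0.0162), and with a library left out its log2 fold change was 1.20 to 2.19 (adjusted p from 0.0252 to 0.446). No named gene past the threshold turned direction in any of these fits. Library size scaling moved no named call. The cause of these shifts was not tested. Depth limits what can be seen of low genes, and AcLDL and OxLDL were given at different doses.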

Other observations

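Further genes past the threshold in *Slc7a7*-/- macrophages are described here after their values were seen. Among those that rose with OxLDL over AcLDL were *Nceh1*, a hydrolase of cholesterol esters (log2 fold change 0.34 ± 0.09, SE), *Por*, the electron donor of cytochrome P450 enzymes (0.60 ± 0.09), *Creg1* (0.52), the lysosomal trafficking regulator *Lyst* (0.43) and the interleukin receptor *Il7r* (0.55). Among those that fell were the prostaglandin E2 receptor *Ptger4* (-0.97), the leukotriene receptor *Cysltr1* (-0.73), the NADPH oxidase subunit *Cybb* (-0.43), the integrins *Itga5* (-0.45) and *Itgal* (-0.43), the GTPase *Rac2* (-0.48) and thymosin β4, *Tmsb4x* (-0.40).

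Of 63 tested histone genes of the *Hist1* to *Hist4* clusters, taken by symbol after their values were seen, 8 fell, 0 rose and 55 did not pass, with 59 below 0 and a median of -0.40. Over all genes tested, 0.871% fell and 6129 of 12290 were below 0. *Hist1h2bc*, *Hist1h4h*, *Hist2h2bb*, *Hist1h2ak*, *Hist1h2be*, *Hist1h3b*, *Hist1h2ai* and *Hist2h2ac* fell by between 0.49 and 0.75 on the log2 scale. They share between 18.2% and 92% of their 31-base words with other genes, so that levels of single copies are uncertain.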
